A study of Mus musculus with 4 samples.

Results

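Egr1, Ier3 and Junb are immediate early genes, and this account follows them in NIT-1 cells, a mouse pancreatic β cell line, transfected with a plasmid for the oestrogen-related receptor ERRγ or with a control plasmid. The members were taken by gene symbol: every row of the 4 deposited tables whose mouse Ensembl gene ID maps to Egr1, Ier3 or Junb. This gave 4 rows of 3 genes, out of 406 named rows of 373 genes. Egr1 has a pair of rows, read as the transcripts Egr1-201 and Egr1-202, and Ier3 and Junb have 1 row each, Ier3-201 and Junb-201.

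NIT-1 was established from NOD/Lt mice that carried a viral large T antigen under an insulin promoter, so these are cycling tumour cells. The control group was transfected with the plasmid pRP[Exp]-CMVE>EGFP and the other with pRP[Exp]-EGFP >ERR[gamma], each at 8.3 μg with 16 μL of a liposomal reagent, in cells of passages 20 to 25. Each group has 2 libraries, labelled as biological replicates, and neither untransfected cells nor cells with an empty plasmid are among the samples. Every difference below is therefore between the ERRγ plasmid and the EGFP plasmid, after transfection in both groups. Of 44 marker genes of β cells and other pancreatic, stromal, endothelial and immune cells, 0 had a row in the tables, so the cell type could not be checked against its markers.

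Immediate early genes are transcribed soon after a cell meets a growth factor, depolarisation or stress, before new protein has to be made. Kinases of the ERK, p38 and JNK cascades act on factors that already sit at these genes, such as SRF with its ETS partners and CREB. Many of the products are themselves transcription factors and set off the later phase of the response. In β cells, glucose and depolarisation are known inducers of Egr1. Egr1 encodes a zinc finger factor that binds GC-rich sites, Junb encodes a subunit of the dimeric factor AP-1, and Ier3 encodes a small stress-induced protein known for its part in cell survival and ERK signalling.

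The libraries held 16605943 to 18769899 reads, sizes recovered from the tables by dividing reads by RPKM (reads per kilobase of the row, scaled to the size of the library). The listed rows took up 6.26% to 7.62% of them. Esrrg-201, a transcript of the gene for ERRγ, reached 0.232 and 0 RPKM in the controls (here and below in the order replicate 1, replicate 2) and 141 and 78.6 RPKM in the ERRγ group. Of its reads in the ERRγ group 8.77% and 8.68% were unique, so its level depends on how shared reads were assigned. The rule by which the rows were listed is not given in the sources used here. In 355 of the 406 rows (87.4%) the groups did not overlap, so the list appears to have been chosen on these libraries, and nothing below should be read as independent evidence. With 2 libraries against 2, an exact permutation test of a single value cannot go below p = 0.333.

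All 4 rows of the members were lower in both ERRγ libraries than in both controls. The same held for 45.6% of all named rows, so this position alone says little about these genes. In RNA from a whole flask, fewer cells that express a gene and less of its RNA in each cell cannot be told apart. The size of the difference separated the members: Egr1 stood at 47.8% of its control level, with its rows added up, Ier3 at 64.6% and Junb at 67.6%. The order of the levels, which RPKM allows because it is per length, was the same in all 4 libraries, with Junb highest, then Ier3, then Egr1, and the values of neighbours in that order did not overlap within either group.

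**Figure D1:**
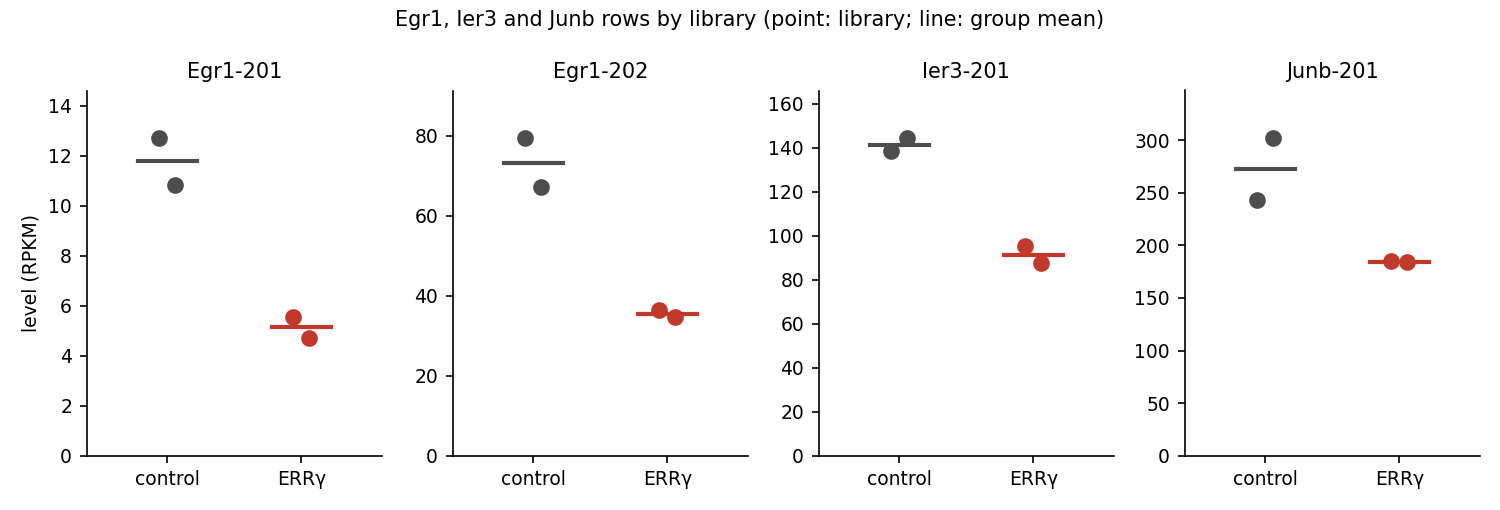
Level in RPKM (vertical axis, from 0, separate for each panel) of the 4 rows in the 2 control and the 2 ERRγ libraries. Each point is a library and each line a group mean. In all 4 panels both ERRγ points lie below both control points, by the widest margin in Egr1-201 (lowest control over highest ERRγ 1.95) and by the narrowest in Junb-201 (1.32).

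Egr1, the zinc finger factor of the group, had the largest difference among the members. It was not the largest in the tables. Of the 406 named rows, the 265 with a mean of at least 100 reads were ranked from the lowest log2 ratio of ERRγ to control. A pseudocount of 1 was added to the RPKM. In this ranking Egr1-201 stood at 54 and Egr1-202 at 56 of 265 rows. Ier3-201 stood at 85 and Junb-201 at 95. The level of Egr1-202 was 79.4 and 67.2 RPKM for the controls, against 36.4 and 34.6 RPKM for ERRγ. The ERRγ libraries lay close together, the controls further apart, and the groups did not overlap. These levels came from 4527 and 3449 reads in the controls and from 1836 and 1837 reads with ERRγ. Egr1-201 was the less abundant transcript, with 12.7 and 10.9 RPKM for the controls, against 5.56 and 4.71 RPKM for ERRγ. Its groups did not overlap either, with control replicate 1 again the highest library and ERRγ replicate 2 again the lowest.

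Both transcripts lie on the plus strand of chromosome 18 in GENCODE M21 on GRCm38, Egr1-201 from 34859823 to 34864984 with 2 exons and Egr1-202 from 34861207 to 34864956 with 3 exons. No other annotated gene overlaps them. They encode the same protein of 533 residues, with 0 coding bases that differ, and they differ in the untranslated regions. The 5′ untranslated region is 1666 bases long in Egr1-201 and 246 bases in Egr1-202. All 3036 bases of Egr1-202 are also in Egr1-201, while 1448 bases of Egr1-201 are absent from Egr1-202, 1384 of them upstream of its start. A read can thus be unique to Egr1-201 through its bases, but to Egr1-202 only across a splice junction.

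The read counts followed this structure. Egr1-202 had 5 and 1 unique reads in the controls and 0 and 3 with ERRγ, too few for a test, where a count of 0 allows up to 3 reads. Egr1-201 had 338 and 254 unique reads in the controls and 150 and 118 with ERRγ. Spread over the 1448 bases that Egr1-202 lacks, these unique reads correspond to 12.4 and 10.4 RPKM for the controls, against 6.24 and 4.67 RPKM for ERRγ. These values are close to the levels deposited for the whole row. That closeness is not a separate check. The unique reads are 30.9% to 36.2% of the row's own reads, and how the others were assigned is not described. The groups do not overlap in the unique-read values. The long 5′ region, which needs no sharing of reads, was thus lower with ERRγ alongside the shared part of the gene.

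**Figure D2:**
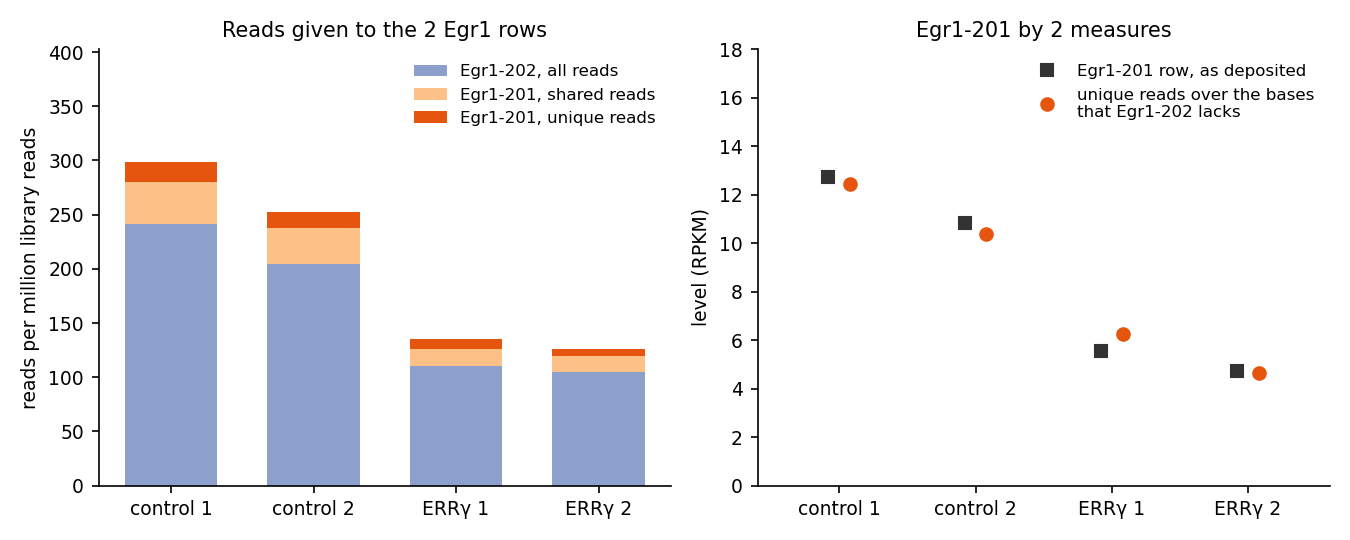
Left, reads per 1000000 library reads given to the Egr1 rows in each library, stacked as all reads of Egr1-202, shared reads of Egr1-201 and unique reads of Egr1-201. Right, the level of Egr1-201 in RPKM as deposited (squares) and from its unique reads over the 1448 bases absent from Egr1-202 (circles). The stacks reach 298 and 253 in the controls and 135 and 126 with ERRγ, and the 2 measures on the right give similar values in each library. They are not separate measures, since the reads behind the circles are part of those behind the squares.

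The split between the Egr1 transcripts moved little. Egr1-201 held 19.1% and 19.2% of the reads of the gene in the controls and 18.4% and 16.7% with ERRγ. The ratio of Egr1-201 to Egr1-202 in RPKM was 0.160 and 0.161 in the controls and 0.153 and 0.136 with ERRγ. The groups did not overlap, but the distance between them (0.161 ± 0.000943 against 0.144 ± 0.0118, SD, n = 2 each) was at the scale of the spread within the ERRγ group (two-sided exact permutation p = 0.333, the smallest this design allows). Since most reads of the gene are shared (unique reads made up 5.49% to 6.67% of them), this ratio also depends on how the shared reads were assigned, a step that no label or header describes.

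With its rows added up, Egr1 had 5597 and 4271 reads in the controls and 2250 and 2206 with ERRγ. The summed level was 85.1 ± 9.95 RPKM in control and 40.7 ± 1.85 RPKM with ERRγ (SD, n = 2), a ratio of 2.09. The controls differed from each other by a factor of 1.18 (95% interval 1.13 to 1.23, exact binomial, covering counting error only), so their spread exceeded what counting alone gives. The gap between the groups was wider: the lower control stood 1.86 times above the higher ERRγ library.

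Ier3, whose product is known to modulate survival under stress, showed the tightest controls. The level of Ier3-201 was 138 and 144 RPKM for the controls, against 95.1 and 87.6 RPKM for ERRγ. Within the groups the libraries differed by factors of 1.04 and 1.09, while the lower control stood 1.46 times above the higher ERRγ library. The levels came from 2939 and 2760 reads in the controls and 1787 and 1731 with ERRγ, all of them uniquely placed. The gene lies on the plus strand of chromosome 17 from 35821684 to 35822923 (GRCm38), with 2 exons, 160 encoded residues and no overlapping annotated gene.

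Junb, for an AP-1 subunit that often restrains the activity of c-Jun, was the most abundant of the 3 genes. Its row Junb-201 had a level of 243 and 302 RPKM for the controls, against 185 and 184 RPKM for ERRγ. The ERRγ libraries were nearly equal (ratio 1.00, 95% interval 0.968 to 1.04 from counting error), whereas control replicate 2 exceeded control replicate 1 by a factor of 1.24 (1.20 to 1.28). The lower control was 1.32 times the higher ERRγ library, the narrowest gap among the members. Here too all reads were unique, 8267 and 9231 in the controls and 5553 and 5817 with ERRγ. Junb-201 is a single exon on the minus strand of chromosome 8 from 84976910 to 84978718 (GRCm38), encodes 344 residues and overlaps no other annotated gene.

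No promoter sequence of Egr1 was in the sources used here, so Egr1 was not searched for motifs. The sequences upstream of Ier3 and Junb, which both had similar differences between the groups and only unique reads, are shown. They are from RefSeq on GRCm38.p6, at chr17:35821463-35821683 (plus strand, 221 bases) and chr8:84978749-84978998 (minus strand, 250 bases), stop short of the annotated transcripts, and have capitals where a motif named below matches.
Ier3: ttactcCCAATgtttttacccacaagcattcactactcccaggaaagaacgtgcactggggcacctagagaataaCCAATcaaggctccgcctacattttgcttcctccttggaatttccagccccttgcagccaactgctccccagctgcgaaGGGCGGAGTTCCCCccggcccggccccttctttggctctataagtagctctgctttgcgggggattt
Junb: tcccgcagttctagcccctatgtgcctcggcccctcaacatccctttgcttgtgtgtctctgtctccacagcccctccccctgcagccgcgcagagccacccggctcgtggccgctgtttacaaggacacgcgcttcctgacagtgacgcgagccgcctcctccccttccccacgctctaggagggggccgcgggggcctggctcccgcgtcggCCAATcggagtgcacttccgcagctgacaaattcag
Positions are counted back from the RefSeq start, and both strands were searched. For Ier3 the 29 bases before that start are not shown, so its printed letters end 29 bases short of it. For Junb 0 bases are left out. Ier3 has a match to the κB site, bound by NF-κB factors, from -92 to -83 on the opposite strand, which overlaps a GC box (GGGCGG) from -96 to -91, and it has 2 CCAAT boxes (CCAAT), the first from -244 to -240 and the second from -175 to -171. Junb has 1 CCAAT box, from -36 to -32, and no match to the κB site or the GC box. Windows of the same length and position hold a κB match in 5.21% of all 32851 promoters, a GC box in 28.7% and a CCAAT box in 31.1% (33.8% at the length of the Junb window). The CCAAT box was added to the search after the sequences were seen. No match was found in either window to the ERR half-site AAGGTCA (present in 3.69% of promoters at the Ier3 length and 4.08% at the Junb length). Nor was there a match to the AP-1 site TGANTCA (6.13% and 6.75%), the CRE TGACGTCA (1.16% and 1.55%) or the EGR site GCGTGGGCG (0.454% and 0.536%). The TATA box TATAAA (9.99% and 12.4%) and the CArG box bound by SRF (1.30% and 1.47%) had no match either. Most promoters lack each of these, so an absence says little. The Ier3 sequence holds tataag, which differs from TATAAA in its last letter and was not counted as a match. A match is a description of these letters and not evidence of binding.

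Ratios between genes within a library do not depend on how libraries are scaled. Those of Egr1 to Junb and to Ier3 did not overlap between the groups. How many other pairs of rows separate in this way was not counted, and taken singly 87.4% of all named rows did. The ratio of Egr1 (rows added up) to Junb in RPKM was 0.379 and 0.259 in the controls and 0.227 and 0.214 with ERRγ. Both ERRγ values lay below both controls, although control replicate 2 came close to them. The ratio of Egr1 to Ier3 was 0.666 and 0.541 in the controls and 0.441 and 0.449 with ERRγ, again without overlap. The ratio of Ier3 to Junb was 0.569 and 0.478 in the controls and 0.515 and 0.476 with ERRγ, so here the groups overlapped. The two-sided exact permutation p was 0.333 for each ratio with Egr1, the smallest this design allows, and 0.667 for Ier3 to Junb. Adjusted by Benjamini-Hochberg over the 4 ratios tested, that of the Egr1 transcripts included, these became 0.444 and 0.667.

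**Figure D3:**
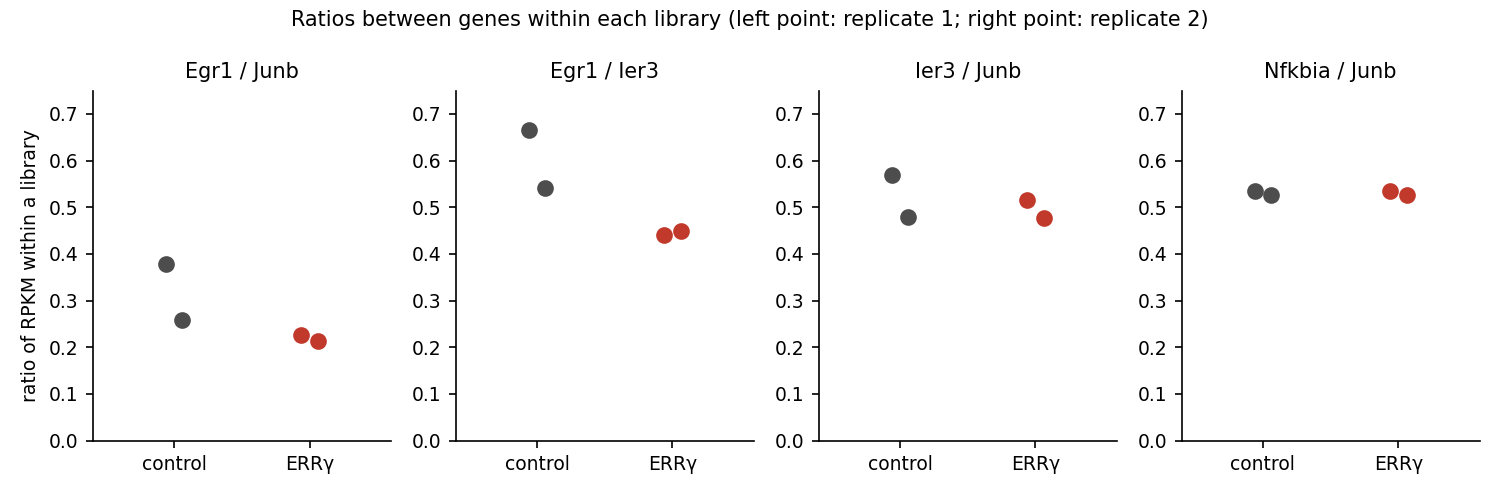
Ratio of the RPKM of 2 genes within each library (vertical axis, from 0), with 1 point a library. Egr1 over Junb and Egr1 over Ier3 are lower in both ERRγ libraries than in both controls, Ier3 over Junb overlaps between the groups, and Nfkbia over Junb lies between 0.525 and 0.535 in all 4 libraries. Nfkbia was picked for its likeness to Junb in these libraries.

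Tests across all rows, each edgeR's quasi-likelihood test of ERRγ against control scaled by the recovered library sizes, placed the members against the rest of the tables. On all reads, Egr1-202 fell, with a log2 fold change of -1.05 ± 0.13 (SE, edgeR, adjusted p = 0.0444). Egr1-201 (-1.20 ± 0.34, adjusted p = 0.0701), Ier3-201 (-0.63 ± 0.12, adjusted p = 0.0518) and Junb-201 (-0.56 ± 0.12, adjusted p = 0.0518) missed the threshold of 0.05 in edgeR. That is 1 of 4 rows, where 5.6% of the 375 rows tested were called lower. On unique reads, all 3 rows that could be tested fell, with log2 fold changes of -1.07 ± 0.25 for Egr1-201 (edgeR, adjusted p = 0.00111), -0.63 ± 0.17 for Ier3-201 (adjusted p = 0.00331) and -0.56 ± 0.15 for Junb-201 (adjusted p = 0.00316). In that test 51.2% of the 121 rows were called lower, so 3 of 3 is not far from the background. With the rows of a gene added up, Egr1 fell (-1.07 ± 0.12, edgeR, adjusted p = 0.0354), Ier3 fell (-0.63 ± 0.11, adjusted p = 0.0482), and Junb missed the threshold (-0.56 ± 0.12, adjusted p = 0.0533). Here 8.65% of 347 genes were called lower.

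The calls of Ier3 and Junb differed between these tests although their reads did not. Their counts are the same among all reads and among unique reads, and so are their fold changes. Their SE was smaller on all reads (0.12 for both) than on unique reads (0.17 for Ier3-201 and 0.15 for Junb-201). The common dispersion was 0.534 over all-read rows and 0.0138 over unique-read rows. The prior degrees of freedom, the weight edgeR gives to the spread shared by all rows, were 2.50 and 31.6. The p-values were adjusted over 375 and 121 rows. What each of these adds to the calls was not tested. A further limit is the scaling. With TMM factors, which centre the listed rows themselves, the median of all rows moved up by 0.16 on all reads and by 0.34 on unique reads (log2). The unique-read fold changes became -0.73 ± 0.23 for Egr1-201 (edgeR, adjusted p = 0.0263, range over the alternatives 6.89e-05 to 0.216), -0.29 ± 0.14 for Ier3-201 (0.156, range 0.000150 to 0.333) and -0.22 ± 0.14 for Junb-201 (0.293, range 0.000111 to 0.293), against 10% of 120 rows called lower. The all-read call of Egr1-202 was lost with TMM, where 0.268% of rows were called lower (-0.88 ± 0.13, adjusted p = 0.0596, range 5.91e-13 to 0.106), and the call of Egr1 with rows added up was kept, where 0.87% of genes were called lower (-0.93 ± 0.10, adjusted p = 0.0407, range 6.06e-15 to 0.186). In that test Ier3 lost its call (-0.49 ± 0.12, adjusted p = 0.0676, range 3.64e-08 to 0.299). All members stayed negative under every alternative run.

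**Figure D4:**
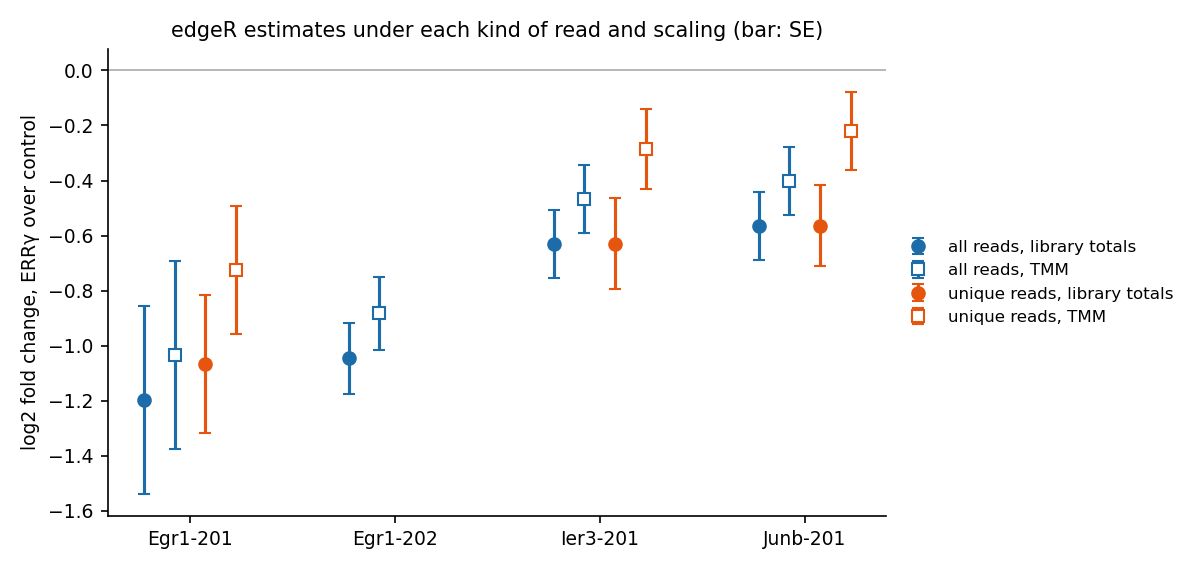
Log2 fold change of ERRγ over control (vertical axis) with its SE for each row, on all reads or unique reads and with library totals (filled circles) or TMM (open squares). Egr1-202 has no unique-read estimate. All estimates are below 0, and Egr1 lies lowest. TMM moves all rows up by similar amounts within each kind of read, so Ier3-201 and Junb-201 remain closer to 0 than the Egr1 rows.

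With single libraries left out, the unique-read calls depended on the ERRγ libraries. Without ERRγ replicate 1 the adjusted p in edgeR was 0.148 for Ier3-201 and 0.184 for Junb-201, and Egr1-201 kept its call (0.0116). Without ERRγ replicate 2 it was 0.216 for Egr1-201, 0.333 for Ier3-201 and 0.285 for Junb-201. The log2 fold changes of Ier3-201 (-0.69 and -0.57 without ERRγ replicates 1 and 2) and Junb-201 (-0.57 and -0.56) stayed near those of all 4 libraries, while their SE rose from 0.17 and 0.15 to between 0.28 and 0.31. Without either control all 3 calls held. On all reads Egr1-202 lost its call without any 1 of the 4 libraries (adjusted p 0.0543 and 0.0615 without control replicates 1 and 2, and 0.0740 and 0.106 without ERRγ replicates 1 and 2). The log2 fold change of Junb-201 was -0.71 without control replicate 1 and -0.40 without control replicate 2. With rows added up, Egr1 kept its call only without control replicate 1 (0.0397), and lost it without control replicate 2 (0.0520) and without either ERRγ library (0.144 for replicate 1, 0.186 for replicate 2). The call of Ier3 was lost without any 1 of the 4 (0.0612 and 0.0595 for the controls, 0.228 and 0.299 for ERRγ), and Junb gained a call without control replicate 1 (0.0397).

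Other immediate early genes were mostly lower as well, by less than Egr1. Of 70 genes on a list of immediate early genes, 10 had rows in the tables, 11 rows in all with the members included. Of these 11 rows, 10 were lower in both ERRγ libraries than in both controls (background 45.6%), and 1 was higher (background 41.9%). The 4 rows of the members are among the 10. On all reads the list had a median log2 fold change of -0.56, and of -0.49 without the members, where that of all rows tested was -0.27. On unique reads its median was -0.57, and -0.49 without the members, against -0.38. With TMM these unique-read medians were -0.23 and -0.15, against -0.03. Outside the members, the all-read test in edgeR called 0 of 7 rows, with 3 of 7 (Fosl1, Nfkbia and Phlda1) at an unadjusted p under 0.05, while limma on log2(RPKM + 1) called 0 of 7 (0 at an unadjusted p under 0.05), where it called 7.14% of all rows. DESeq2 called 6 of the 7 lower and 1 higher, where it called 37.9% of all rows lower and 23.6% higher. The unique-read test called 6 of 7 lower, where 51.2% of all rows were called lower. With TMM it called 0 lower and 1, Id1-201, higher, where 10% of rows were called lower and 24.2% higher.

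Among the transcription factors of the list, Atf3-201, for a stress-induced partner in AP-1 and CRE-binding dimers, had a level of 44.2 and 38.01 RPKM for the controls, against 28.9 and 14.8 RPKM for ERRγ. Its ERRγ libraries were far apart, and 4.15% of its reads were unique. It fell on unique reads (-0.88 ± 0.34, edgeR, adjusted p = 0.0323). Fosl1, for the AP-1 subunit Fra-1 that can pair with JunB, had 108 and 124 RPKM for the controls, against 85.9 and 83.5 RPKM for ERRγ, and all its reads were unique. It fell on unique reads (-0.45 ± 0.16, edgeR, adjusted p = 0.0235). Ier2-201, for a nuclear immediate early protein, had 73.3 and 88.2 RPKM for the controls, against 63.6 and 55.6 RPKM for ERRγ, and fell on unique reads (-0.44 ± 0.17, edgeR, adjusted p = 0.0334). The inhibitor of differentiation Id1, which sequesters basic helix-loop-helix factors, went the other way. Id1-201 had 240 and 282 RPKM for the controls, against 315 and 318 RPKM for ERRγ. It passed neither on all reads (0.28 ± 0.11, edgeR, adjusted p = 0.123) nor on unique reads (0.27 ± 0.19, adjusted p = 0.174), and rose on unique reads with TMM (0.62 ± 0.17, adjusted p = 0.0143).

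Among the feedback and stress genes, Nfkbia-201, for the NF-κB inhibitor IκBα, had 130 and 159 RPKM for the controls, against 98.9 and 96.9 RPKM for ERRγ, and fell on unique reads (-0.58 ± 0.17, edgeR, adjusted p = 0.00844). Phlda1-201, for a pleckstrin-homology-like protein, had 60.3 and 70.0 RPKM for the controls, against 47.3 and 45.4 RPKM for ERRγ. It fell on unique reads (-0.49 ± 0.17, edgeR, adjusted p = 0.0222). Ppp1r15a-201, for the stress-induced phosphatase subunit GADD34, had 47.6 and 68.4 RPKM for the controls, against 38.7 and 41.9 RPKM for ERRγ, and fell on unique reads (-0.65 ± 0.24, edgeR, adjusted p = 0.0263). All 6 of these unique-read calls outside the members were absent with TMM, DESeq2 size factors or column totals, without the filter on low counts, and without either ERRγ library. Of 24 upstream kinases and factors, 1 had a row, the noncoding Mapk3-205, listed at 14.4 RPKM in control replicate 1 and at 0 in the other libraries.

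The controls divided the list. Of the 11 rows, 3 (both Egr1 rows and Atf3-201) were higher in control replicate 1 and 8 in control replicate 2, where over all named rows the numbers were 195 and 189. Within ERRγ, 9 rows were higher in replicate 1 and 2 in replicate 2, against 199 and 170 over all named rows.

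**Figure D5:**
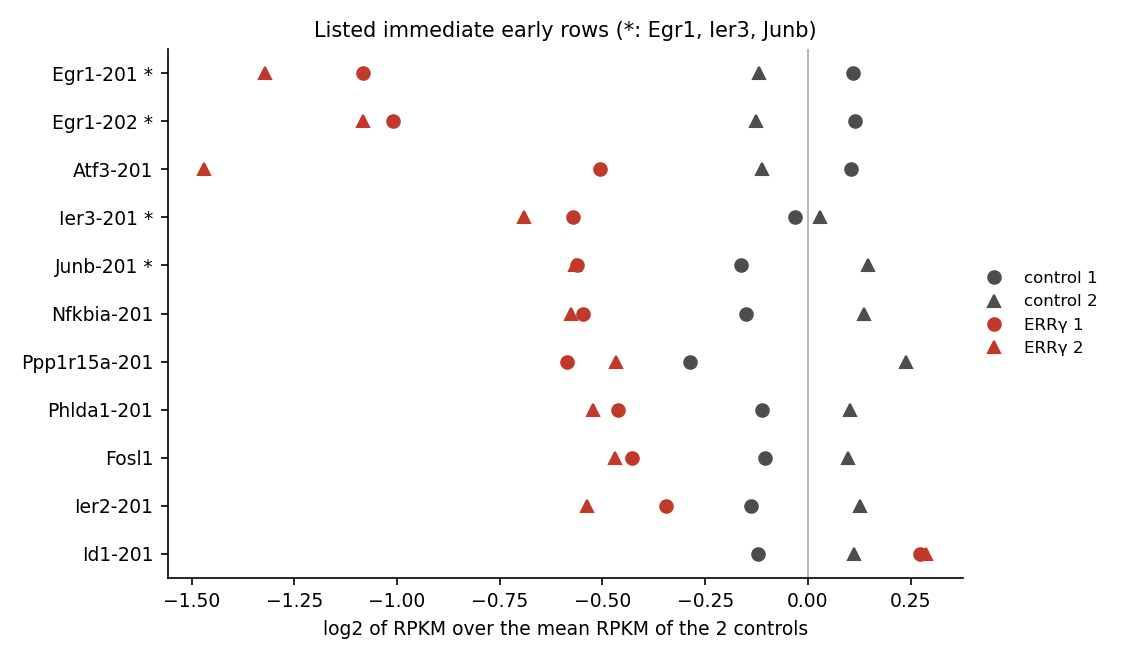
Log2 of the RPKM in each library over the mean RPKM of the 2 controls (horizontal axis) for the 11 listed rows of immediate early genes, ordered by the difference between group means, with 1 point a library. In 10 rows both ERRγ points lie to the left of both controls, and Id1-201 lies to the right. Control replicate 1 is the higher control for the Egr1 rows and Atf3-201.

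The rows most like each member were sought over the 4 libraries, as the smallest root mean square difference of row-centred log2(RPKM + 1) among rows with a mean of at least 100 reads. This likeness uses the same group difference that is described above and gets no test. For Junb (264 rows compared, median 0.50) the nearest row was Nfkbia-201 at 0.01, then Hmox1-201 (haem oxygenase, 0.04), Phlda1-201 (0.05), Cx3cl1-201 (the chemokine fractalkine, 0.06) and the row of Acta2 (smooth muscle actin, 0.07). The ratio of Nfkbia-201 to Junb in RPKM was 0.535 and 0.525 in the controls and 0.535 and 0.526 with ERRγ. Since the row was picked as the closest to Junb in these same libraries, a near-constant ratio follows from that choice.

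For Ier3 (264 rows, median 0.54) the nearest rows included Serpinb9-201 (a granzyme inhibitor, 0.04), Irf1-202 (an interferon regulatory factor, 0.04), Actg1-204 (γ-actin, 0.05) and Cxcl10-201 (an interferon-induced chemokine, 0.05). Of these, Serpinb9-201, Irf1-202 and Actg1-204 rest almost wholly on shared reads, with at most 0.0154% unique. For Egr1 (263 rows, median 0.71) they were Ifit2-201 (an interferon-induced antiviral gene, 0.08), Hsph1-201 (a co-chaperone, 0.08), Gm8399-201 (a predicted gene, 0.11), Thbs1-201 (thrombospondin, 0.16) and Zfand2a-201 (an arsenite-induced zinc finger gene, 0.17). Here Hsph1-201 and Zfand2a-201 rest almost wholly on shared reads, with 0.185% and 0.0709% unique. Egr1 thus had looser neighbours than Ier3 and Junb, and no row was among the nearest 5 of more than 1 member.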

How the data were processed

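RNA sequencing of NIT-1 cells gave 4 tables, 1 for each library (2 control, 2 ERRγ), grouped by sample title. Per the file headers, each row has a gene ID, its RPKM, and counts of the unique and of the total gene reads, all made and deposited by the authors. The submitters' processing notes name the build mm8; aligner, counting program, strand handling: not given in the sources used here. Of 409 rows, 3 carry no gene ID (0.0121% to 0.0332% of listed reads) and were left out. A single library size per table made all row lengths whole within 0.01 nucleotides, and 397 lengths (97.8%) equalled 1 transcript of the row's gene in GENCODE M21 on GRCm38, from which rows are named. No mm8 coordinates were used.

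All rows were fitted together with edgeR 4.0.16 in R 4.3.3 (glmQLFit, glmQLFTest, filterByExpr, recovered library sizes, no TMM, Benjamini-Hochberg adjusted p under 0.05), on total counts, on unique counts and on total counts added over the rows of a gene. Alternatives were other scalings and filters, a replicate block, single libraries left out, DESeq2 1.42.0, and limma 3.58.1 on log2(RPKM + 1). The fits were tested on simulated data, where the all-read and added-rows fits recovered fewer of the changed rows than the unique-read fit. The unique-read fit also called a larger share of the unchanged rows. Each simulation drew its counts with the dispersions of its own fit, so it cannot rank the fits. Each SE is the fold change over the root of F. P-values measure the spread between these libraries only. Where a group is left with 1 library, it is assumed to vary like the other group. Intervals cover counting error only. All rows of the members are named, then listed rows of the immediate early and upstream gene lists, and the 5 rows most like each member, 1 of which is not reported here. Members and lists were chosen with earlier results of these data known.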

Additional observations from a re-analysis of the deposited data

How the results depend on the processing

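The number of rows called is fragile. The all-read test called 25 rows, and 1 with TMM, 7 with DESeq2 size factors, 3 with column totals, 1 unfiltered, 42 at a mean count of at least 50, 1 with the replicate block, 250 with DESeq2 and 42 with limma on log2(RPKM + 0.1); with single libraries left out it called 1 to 2. The unique-read test called 73 rows (11 higher, 62 lower), and 41 with TMM (29 higher, 12 lower), 41 with DESeq2 size factors, 45 with column totals and 23 without a filter; with single libraries left out it called 10 to 98. The test with added rows called 36 genes, and 5 with TMM, 7 with DESeq2 size factors, 12 with column totals, 5 unfiltered, 4 with the replicate block and 222 with DESeq2; with single libraries left out it called 2 to 17. The labels do not say whether replicate numbers pair libraries. Deviations of same-numbered libraries correlated at -0.04 on all reads and 0.31 on unique reads. With the block the unique-read test called 71 rows. Of 122 alternative estimates for the members, 81 stayed on the same side of the threshold, 35 lost a call, 6 gained 1 and 0 changed sign; which cause lay behind lost calls was not tested. Those 81 include results that had no call to lose, such as 13 of 14 for Egr1-201 on all reads. Where the main test made a call, it was lost in 12 of 14 alternatives for Egr1-202 on all reads. On unique reads it was lost in 1 of 11 for Egr1-201 and in 5 of 11 each for Ier3-201 and Junb-201. With rows added up it was lost in 3 of 11 for Egr1 and 9 of 11 for Ier3. The all-read value of Egr1-202 lay between -1.16 and -0.79 over its alternatives, that of Ier3-201 between -0.69 and -0.37 and that of Junb-201 between -0.71 and -0.31. Among the 5 rows most like each member, 4 or 5 were the same with a pseudocount of 0.1 or without a filter on reads. Unique reads limit Egr1-202, which had at most 5.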
